A study of Mus musculus with 6 samples.

Results

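RNA of red blood cells and of their precursors was followed in 6 primary mouse osteosarcomas through 9 genes of the 39179 in the counts table. The 9 genes were chosen by symbol: the adult globins Hba-a1, Hba-a2, Hbb-bs and Hbb-bt, the heme synthesis gene Alas2, the red cell membrane genes Slc4a1 and Epb42, and the erythroid transcription factor genes Klf1 and Gata1. All 9 symbols were matched to a row, and 6 of the 9 passed the filter on low counts that 16839 genes passed. RNA was sequenced from 3 tumors labelled CD44+/+; Nf2Δ2/+ (mice No244, No316 and No368) and from 3 tumors labelled CD44-/-; Nf2Δ2/+ (mice No203, No279 and No364). Every mouse was heterozygous for the mutant Nf2Δ2 allele of the tumor suppressor gene Nf2 and of a mixed background of the strains C57BL/6, 129/Sv and FVB, and no treatment and no age is given. The groups thus differ in Cd44, the gene of a cell surface receptor for hyaluronic acid, which is intact in the first group and deleted in both copies in the second. By the labels, each library is 1 tumor of 1 mouse.

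Hemoglobin of adult mice is built of alpha and beta chains, each of which holds a heme group. The alpha chains come from Hba-a1 and Hba-a2, and the beta chains in the reference genome from Hbb-bs and Hbb-bt. Adult beta globin genes come in strain haplotypes, and which of them these mice of mixed background carried is not given in the sources used here. Red cells arise in bone marrow and spleen from nucleated precursors, in which GATA1 and KLF1 switch on the globin, heme and membrane genes. The nucleus is then expelled, and the reticulocyte that enters the blood keeps globin RNA for some time but transcribes no more. Globin RNA in a piece of tumor can therefore come from blood as well as from precursors, whereas Klf1 and Gata1 RNA belongs mainly to nucleated cells, Gata1 RNA also to megakaryocytes, mast cells and eosinophils.

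Total counts ranged from 18076388 to 26954142 per tumor, and 3 counts, the smallest level taken as detectable, corresponded to 0.111 to 0.166 CPM (counts scaled to library size) before normalization. Several features of the libraries touch the values of the erythroid genes. No316 and No368 differed by less than the sampling noise for 87.2% of 16671 genes, against 15.8% to 24.0% in the other pairs of tumors. Their average therefore entered means and SDs as 1 sample, while the main edgeR test kept them as separate libraries. Mitochondrial genes took 55.2% of the counts of No244 and 5.94% to 12.5% of those of the others. The 8 hepatocyte markers summed to 111445 normalized CPM in No364, with all 8 highest in that tumor, and to 38.6 to 145 CPM in the other tumors. The 7 osteoblast and bone matrix markers summed to 800 CPM in No364 and to 12078 to 35902 CPM elsewhere. Sp7, the transcription factor gene that defines osteoblasts, had 6 counts in No364 and 120 in No279, against at least 2287 in the others. Cd44 itself was at 137 CPM in No244, the lowest of the CD44+/+ tumors, and at 243.6 and 240.3 in the pair No316 and No368. Of the CD44-/- tumors No364 had 61.8 CPM, No203 had 19.2 and No279 had 15.7. The Cd44 levels of the genotypes did not overlap (log2 fold change -2.68, SE 0.65, adjusted p = 0.452 in edgeR's quasi-likelihood test), and all log2 fold changes are given as CD44-/- minus CD44+/+.

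The sequences of the globin genes set how far their counts can be told apart. Hba-a1 (ENSMUSG00000069919, chr11:32283511-32284465) and Hba-a2 (ENSMUSG00000069917, chr11:32296489-32297298) lie on the plus strand, and Hbb-bs (ENSMUSG00000052305, chr7:103826534-103828096) and Hbb-bt (ENSMUSG00000073940, chr7:103812524-103813996) on the minus strand, in GRCm38 coordinates of GENCODE M21. The coding sequences of the alpha pair (426 bases) and of the beta pair (441 bases) each differ at 1 base, so that both pairs are 99.8% identical. Of all windows of 51 bases, the length of a read, 67.3% of the Hba-a1 transcript and 86.7% of the Hba-a2 transcript are also found in the other alpha gene. The shares are 65.7% for Hbb-bs and 58.2% for Hbb-bt, and no other annotated transcript holds any of these windows on the same strand. Coding windows that contain the single differing base, in capitals, are shown. A read that lies within the coding sequence must cover this base to distinguish the copies. Windows that reach outside the coding sequence can also differ. The windows shown are written 5′ to 3′ along the gene and lie within coding exons.
Hba-a1, chr11:32284318-32284368: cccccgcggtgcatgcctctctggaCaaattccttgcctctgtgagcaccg
Hba-a2, chr11:32297135-32297185: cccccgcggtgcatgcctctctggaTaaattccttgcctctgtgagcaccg
Hbb-bs, chr7:103826668-103826718: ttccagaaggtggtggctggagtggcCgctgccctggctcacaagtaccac
Hbb-bt, chr7:103812659-103812709: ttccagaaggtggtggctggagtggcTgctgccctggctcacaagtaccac
A read from any other stretch of the coding sequence fits both genes of its pair. How such reads were counted is not given in the sources used here, so the 4 values are uncertain as single genes. The sum of each pair does not depend on how such reads were split between its genes. It would still change if they were dropped or counted for both genes. The globin share, the alpha to beta ratio and all values per globin count rest on these sums.

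The stretches upstream of 3 genes are shown because these stand for the globin, heme and factor groups. They come from the RefSeq promoter table (build GRCm38.p6), in which 8 of the 9 genes were found, and were trimmed to bases outside annotated exons. Capitals mark matches to a GATA motif (AGATAA or AGATAG, and likewise TGATAA or TGATAG), a KLF motif (CCNCNCCC), CCAAT or TATAA on either strand, and overlapping matches run together.
Hba-a2, chr11:32296369-32296488, plus strand: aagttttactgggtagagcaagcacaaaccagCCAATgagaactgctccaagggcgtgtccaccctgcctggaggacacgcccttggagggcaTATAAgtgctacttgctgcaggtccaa
Alas2, chrX:150547255-150547374, plus strand: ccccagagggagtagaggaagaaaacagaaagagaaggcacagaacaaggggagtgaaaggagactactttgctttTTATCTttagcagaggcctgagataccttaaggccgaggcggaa
Klf1, chr8:84901808-84901927, plus strand: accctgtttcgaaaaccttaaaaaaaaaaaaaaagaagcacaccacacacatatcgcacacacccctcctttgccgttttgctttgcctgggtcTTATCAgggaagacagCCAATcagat
In the 250 bases before the RefSeq start, a GATA match was found in 6 of the 8 promoters and in 26.5% of all 32851 promoters in the table. Those 6 were Hba-a1, Hba-a2, Hbb-bs, Alas2, Epb42 and Klf1. A KLF match was found in 4 of the 8 (Hbb-bs, Hbb-bt, Alas2 and Gata1) and in 45.9% of all, and in Alas2 its 4 matches lie within 42 bases of the start, in the part not shown. CCAAT was matched in 5 of the 8 and in 33.9% of all, and TATAA in 6 of the 8 and in 22.8% of all. The counts are descriptions of these letters and not of bound factors.

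Adult globin RNA was present in all 6 tumors and overlapped between the genotypes. The 4 globin genes together took 0.538% of all counts in No244, against 0.0919% in No316 and 0.0903% in No368. Of the CD44-/- tumors, No364 had 0.244%, No203 had 0.0534% and No279 had 0.0167%. The 95% binomial (Wilson) intervals of these shares were narrow, for example 0.535% to 0.541% in No244 and 0.0162% to 0.0172% in No279, and as everywhere here cover counting error only. The highest level thus belonged to a CD44+/+ tumor and the second highest to a CD44-/- tumor, the lowest was in a CD44-/- tumor, and the genotypes overlapped. The mean share of the CD44+/+ tumors was 0.315% ± 0.316 (SD, n = 2), and that of the CD44-/- tumors was 0.105% ± 0.122 (SD, n = 3), a difference of -1.88 in the mean of log2 shares (two-sided exact permutation test, p = 0.4, smallest p possible 0.1). Without No244 the difference was -0.60, and without No364 it was -2.89. Among counts outside mitochondrial genes the share was 1.20% in No244 and 0.0178% to 0.279% in the others, so that No244 stood higher still on that scale. In bulk tissue, fewer red cells and less RNA per cell cannot be told apart.

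**Figure D1:**
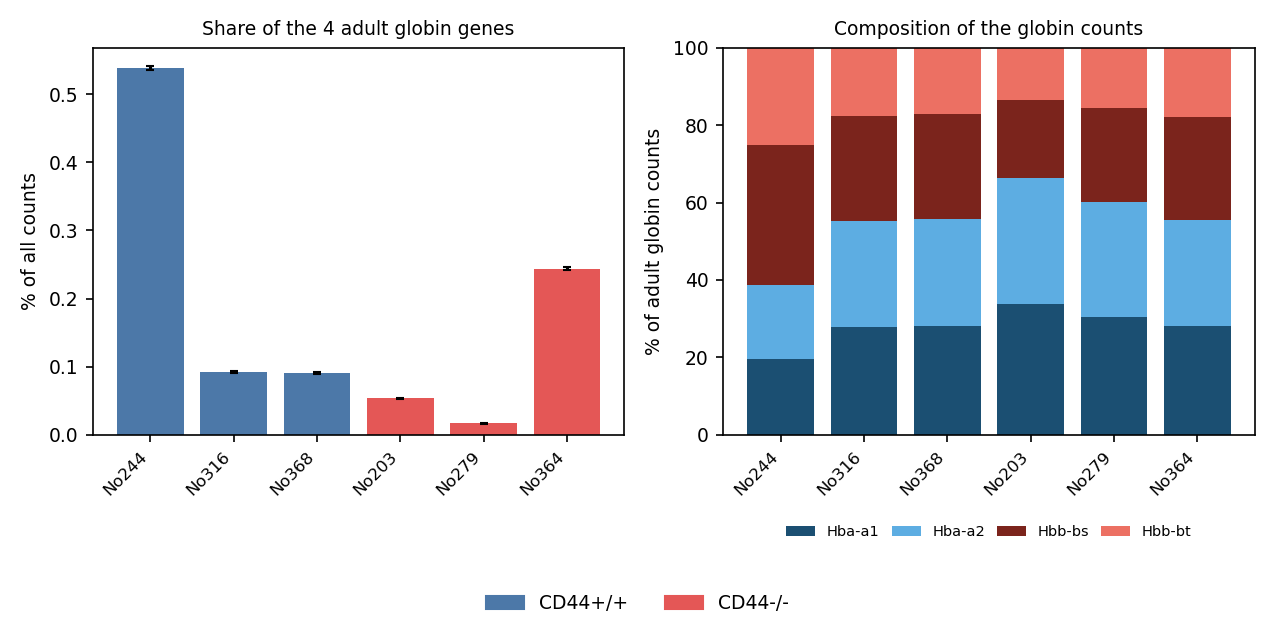
Left, percent of all counts taken by the 4 adult globin genes in each tumor, with 95% Wilson intervals (bars in blue for CD44+/+ and red for CD44-/-). Right, percent of the globin counts from each gene, with No244 holding the largest beta part and No203 the largest alpha part.

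The alpha globin genes had nearly the same level in each tumor. Hba-a1 reached 1869.6 normalized CPM in No244, against 195 in No316 and 193 in No368. Its CD44-/- levels were 969 CPM for No364, 162 for No203 and 41.2 for No279. Hba-a2 had 1829 CPM in No244, 191 in No316 and 189.7 in No368, whereas its CD44-/- levels were 943 CPM for No364, 156 for No203 and 40.3 for No279. Both were highest in No244 and 45.3 times lower in No279, the lowest tumor. The CD44+/+ mean of Hba-a1 was 1032 ± 1185 CPM (SD, n = 2), and its CD44-/- mean was 391 ± 504 CPM (SD, n = 3). In edgeR's quasi-likelihood test over all genes, neither Hba-a1 (log2 fold change -0.95, SE 1.38, adjusted p = 0.806) nor Hba-a2 (-0.96, SE 1.38, adjusted p = 0.803) passed the threshold. The ratio of Hba-a1 to Hba-a2 counts lay between 1.02 and 1.04 in every tumor. Reads shared by both genes enter this ratio, and how they were counted is not given in the sources used here.

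The beta globin genes followed the same order of tumors over a wider range. Hbb-bs reached 3442 CPM in No244, against 190.3 in No316 and 185 in No368. Its CD44-/- levels were 915 CPM for No364, 97.7 for No203 and 32.7 for No279. Hbb-bt had 2397 CPM in No244, 123 in No316 and 118 in No368, while No364 had 614, No203 had 64.5 and No279 had 21.2. No244 thus exceeded No279 105.3 times for Hbb-bs and 113 times for Hbb-bt, and No364 lay above No316 and No368 for all 4 globin genes. The mean of Hbb-bs was 1815 ± 2301 CPM (SD, n = 2) against 349 ± 492 CPM (SD, n = 3). The log2 fold changes were -1.87 for Hbb-bs (SE 1.64, adjusted p = 0.669) and -1.91 for Hbb-bt (SE 1.65, adjusted p = 0.665), again short of the threshold. Without No244, the fold changes of all 4 globin genes turned positive, from 0.88 for Hbb-bs to 0.99 for Hba-a1.

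**Figure D2:**
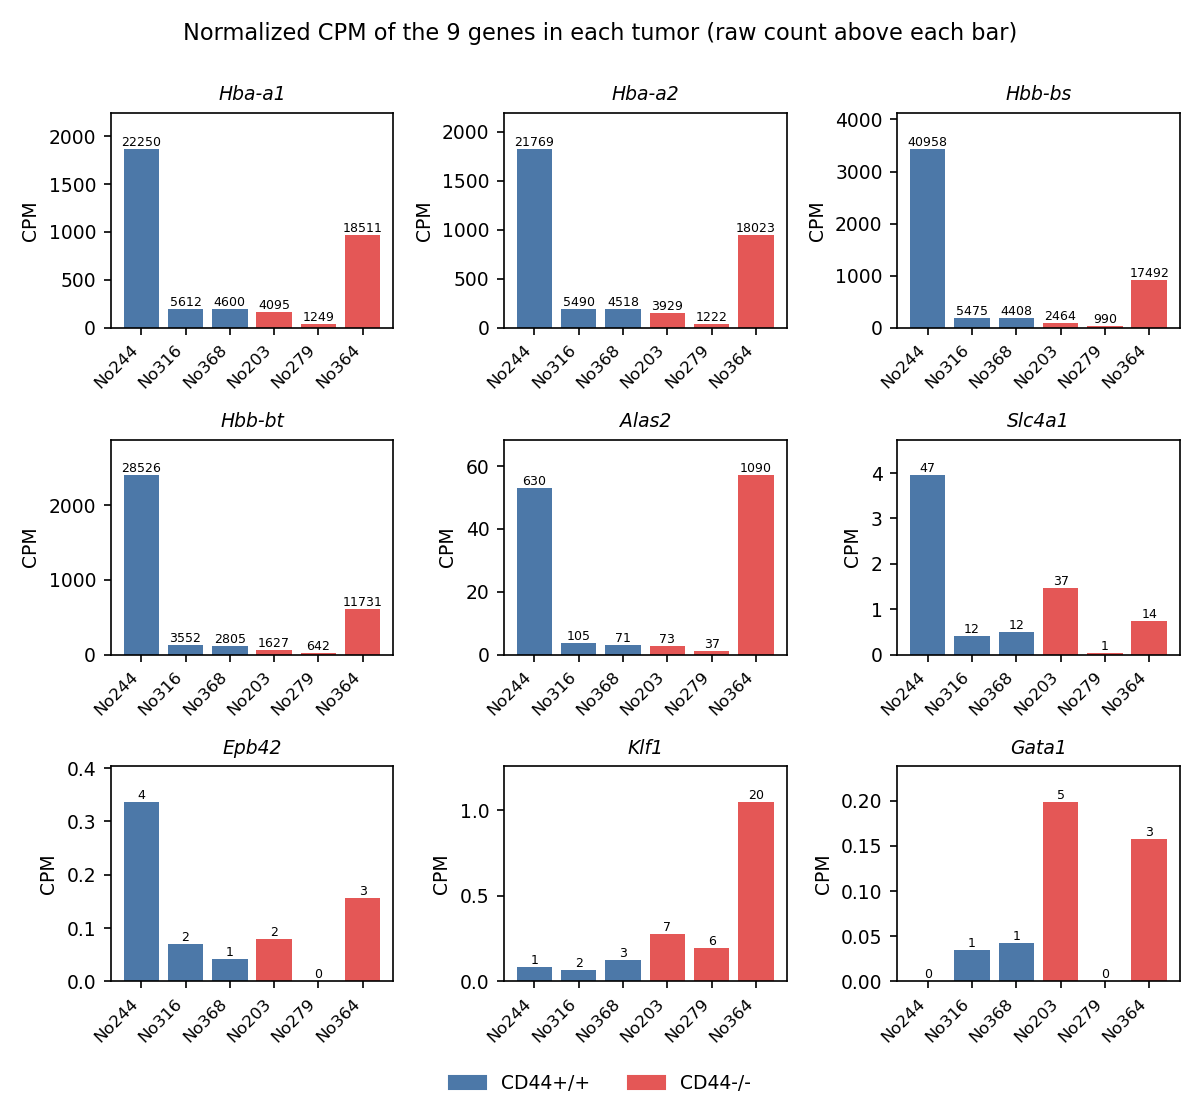
Normalized CPM (bars, linear axis from 0) of each of the 9 genes in each of the 6 tumors, with the raw count above the bar. The globin genes are highest in No244 and next highest in No364, Alas2 reaches similar levels in both, and Klf1 is higher in each CD44-/- tumor than in any CD44+/+ tumor.

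The proportions among the globin genes were steadier than their levels. The split within a pair is uncertain, since 65.7% of the windows of Hbb-bs and 58.2% of those of Hbb-bt are shared. How such reads were counted is not given, so a steady split may come from the counting. Hbb-bt supplied 41.1% of the beta globin counts in No244, 39.3% in No316 and 38.9% in No368, whereas No364 had 40.1%, No203 had 39.8% and No279 had 39.3% (difference of means -0.34 percentage points, exact permutation test, two-sided p = 0.8). The ratio of alpha to beta globin counts was less even, at 0.634 in No244, 1.23 in No316 and 1.26 in No368, while No203 had 1.96, No279 had 1.51 and No364 had 1.25. No244, with the most globin RNA, was the only tumor with more beta than alpha counts, and No203 had the largest excess of alpha. The ratio of No364, 1.25, lay between those of No316 and No368. With that pair as its mean, every CD44-/- tumor had a ratio above both CD44+/+ samples (difference in mean log2 ratio 0.80, exact permutation test, two-sided p = 0.1, the smallest possible). With No316 and No368 as separate samples p was 0.2, and without No244 the difference was 0.31. The part of the beta globin haplotypes of the mice in these proportions was not tested.

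Embryonic and minor globin genes were not detectable beyond the floor. Of Hba-x, Hbb-y, Hbb-bh1, Hbb-bh2, Hbq1a and Hbq1b, none had more than 3 counts in any tumor, while the adult genes had at least 642.

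Alas2, which encodes the erythroid form of the first and rate-limiting enzyme of heme synthesis, was high in the same tumors as the globins but in a different proportion. Alas2 (ENSMUSG00000025270, chrX:150547375-150570638) had 52.9 CPM in No244, against 3.65 in No316 and 2.98 in No368. Its CD44-/- levels were 57.04 CPM for No364, 2.89 for No203 and 1.22 for No279. The level of No364 thus slightly exceeded that of No244, and both were more than 10 times the levels of the other tumors, so that the genotypes overlapped. The CD44+/+ mean was 28.1 ± 35.1 CPM (SD, n = 2), and the CD44-/- mean was 20.4 ± 31.8 CPM (SD, n = 3; log2 fold change 0.04, SE 1.65, adjusted p = 0.993 in edgeR). Its sign was set by single tumors, at 2.60 without No244 and -3.25 without No364. The last part of Alas2 overlaps Apex2, which encodes a DNA repair endonuclease on the opposite strand, over 311 exonic bases, and the strand setting of the counting is not given in the sources used here. Apex2 had 161 to 428 counts per tumor, highest in No364.

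Per 1000 adult globin counts, Alas2 had 5.55 counts in No244, 5.22 in No316 and 4.35 in No368. It had 6.03 in No203, 9.02 in No279 and 16.6 in No364, each above all CD44+/+ tumors. The denominator, the globin share, itself differed by -1.88 in mean log2 between the genotypes. How many other genes separate in this way per globin count was not tested. The exact 95% Poisson interval of No364, 15.6 to 17.6, lay above that of every other tumor, of which the next was 6.35 to 12.4 in No279. The interval of No203, 4.72 to 7.58, overlapped those of all 3 CD44+/+ tumors, so its higher value lay within counting error. No364 also had 12772 counts of Alas1, the form of the same enzyme used outside red cells, against 117 to 838 in the others, and by far the highest hepatocyte marker sum (111445 CPM). The part of these in the Alas2 value was not tested.

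Slc4a1, which encodes band 3, the anion exchanger of the red cell membrane, followed the globins only in part. Like them it was highest in No244 and lowest in No279, but it departed from them in No203 and No364. Slc4a1 (ENSMUSG00000006574, chr11:102348824-102366203, minus strand) had 47 counts in No244 (3.95 normalized CPM), 12 in No316 (0.417 CPM) and 12 in No368 (0.504 CPM). Of the CD44-/- tumors, No203 had 37 counts (1.47 CPM), No364 had 14 (0.733 CPM) and No279 had 1 (0.0330 CPM). No203 was second for Slc4a1 although only No279 had less globin RNA. Slc4a1 had 3.05 counts per 1000 globin counts in No203 (exact 95% Poisson interval 2.15 to 4.21) and 0.213 to 0.735 in the other tumors. Set against Alas2, it made up 33.6% of the summed counts of both genes in No203, 6.94% to 14.5% in the CD44+/+ tumors, 2.63% in No279 and 1.27% in No364. The genotypes overlapped in level (log2 fold change -1.10, SE 1.36, adjusted p = 0.768 in edgeR), and the fold change was 0.68 without No244.

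Epb42, which encodes protein 4.2, a partner of band 3 at the membrane, was at the limit of detection. Epb42 (ENSMUSG00000023216, chr2:121017891-121037072, minus strand) had 4 counts in No244, 2 in No316 and 1 in No368, while No364 had 3, No203 had 2 and No279 had 0. The gene did not pass the filter on low counts, and a difference between genotypes was not detectable at this depth. Summed over Alas2, Slc4a1 and Epb42, the counts per 1000 globin counts were 6.00 for No244, 5.91 for No316 and 5.14 for No368, and 16.8 for No364, 9.26 for No279 and 9.24 for No203. All CD44-/- tumors lay above all CD44+/+ tumors (difference in mean log2 0.97, exact permutation test, two-sided p = 0.1, the smallest possible), although different genes made up the sum, Slc4a1 being a large part of it in No203 and Alas2 nearly all of it in No364. As for Alas2 alone, globin counts are the denominator of this measure.

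Klf1 was the 1 gene of the 9 whose genotypes did not overlap. Klf1 (ENSMUSG00000054191, chr8:84901928-84905291), the gene of a zinc finger activator of the adult beta globin genes, had 1 count in No244 (0.0840 normalized CPM), 2 in No316 (0.0695 CPM) and 3 in No368 (0.126 CPM). It had 20 counts in No364 (1.05 CPM), 7 in No203 (0.278 CPM) and 6 in No279 (0.198 CPM). Every CD44+/+ tumor was at or under the floor of 3 counts. Of the 25317 genes with a total count over 1, 7.92% also had all CD44-/- tumors above all CD44+/+ tumors. The gene did not pass the low-count filter. In the edgeR fit without that filter, its log2 fold change was 2.32 (SE 1.05, adjusted p = 0.496), and in the DESeq2 Wald test it was 2.40 (SE 1.22, adjusted p = 0.349).

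Gata1, the gene of the zinc finger factor that directs erythroid and megakaryocyte development, was lower still. Gata1 (ENSMUSG00000031162, chrX:7959260-7978071, minus strand) had 0 counts in No244 and 1 in each of No316 and No368, while No203 had 5, No364 had 3 and No279 had 0. The genotypes overlapped because No279 had no count, and only No203 exceeded the floor. Without the filter the edgeR log2 fold change was 1.78 (SE 1.49, adjusted p = 0.638).

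The counts of the factor genes did not follow those of the globin genes. Klf1 and Gata1 together had 0.00881 counts per 1000 globin counts in No244, 0.149 in No316 and 0.245 in No368, whereas No279 had 1.46, No203 had 0.991 and No364 had 0.350. The tumor with the most globin RNA, No244, had a single count of both factors beside 113503 globin counts, and its exact 95% Poisson interval was 0.000223 to 0.0491. No279, with the fewest globin counts (4103), had 6 factor counts and an interval of 0.537 to 3.18. No364 had the most factor counts, 23, and the second most globin counts, 65757. Each CD44-/- tumor lay above each CD44+/+ tumor (difference in mean log2 4.28, exact permutation test, two-sided p = 0.1, the smallest possible). The interval of No368 (0.0667 to 0.627) overlapped those of all 3 CD44-/- tumors, and that of No316 (0.0307 to 0.436) overlapped that of No364 (0.222 to 0.525). Without No244 the difference was 2.06. Globin counts are the denominator of this measure, and No244 has by far the most of them. How many other genes separate in this way was not tested.

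**Figure D3:**
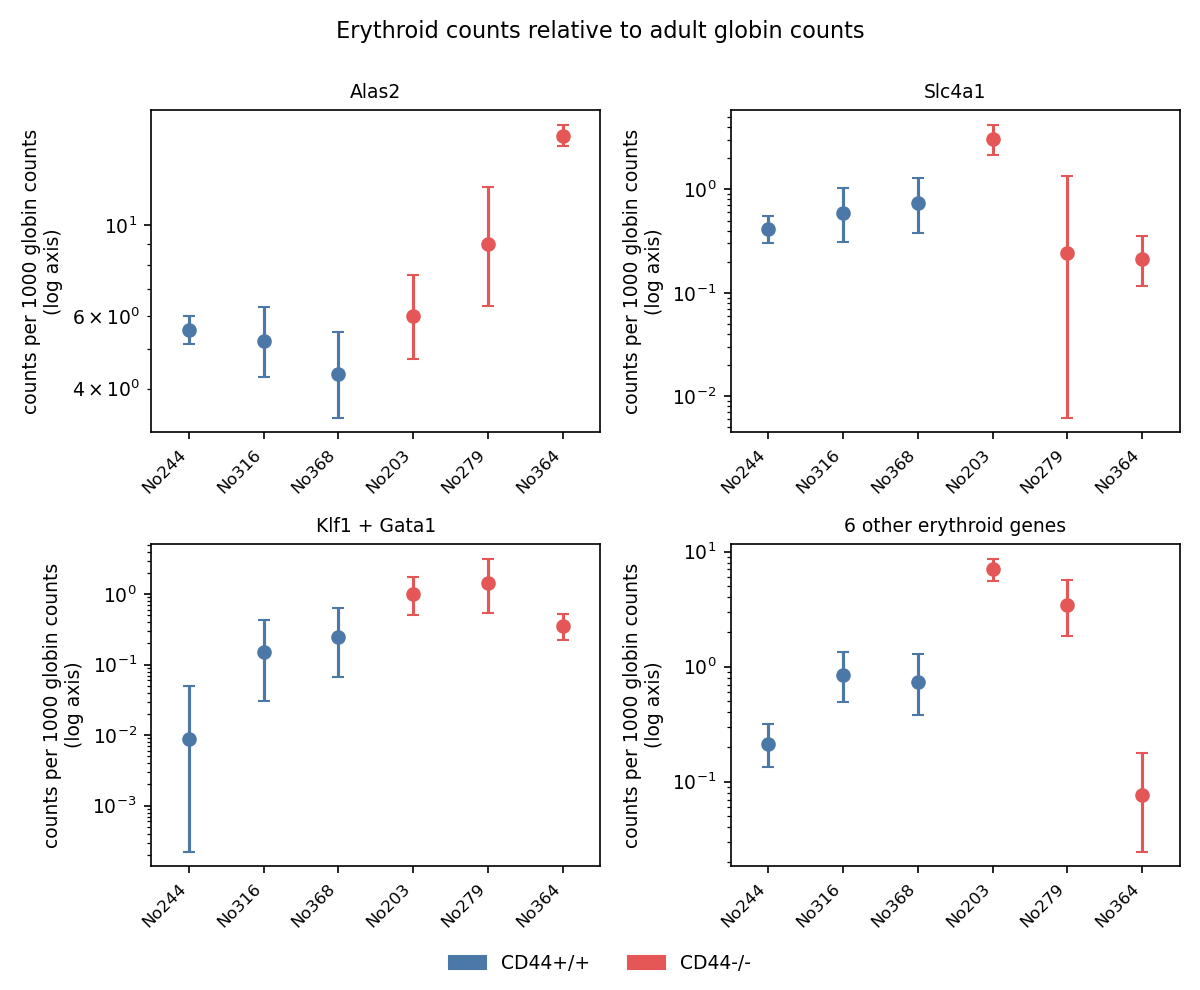
Counts of Alas2, of Slc4a1, of Klf1 plus Gata1 and of 6 other erythroid genes per 1000 adult globin counts in each tumor, on log axes, with exact 95% Poisson intervals of the count. The highest value belongs to No364 for Alas2, to No203 for Slc4a1 and the 6 genes, and to No279 for Klf1 plus Gata1, and the 6 genes were picked after their values were seen.

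No gene of the 9 was called different between the genotypes, and neither was any other gene. Of the 16839 genes tested in edgeR, 0% had an adjusted p under 0.05 (smallest 0.452), so the count of 0 among the 9 equals that of the whole table. None of the 6 tested erythroid genes had an unadjusted p under 0.05, which 10.7% of all tested genes had (1810 genes). That background count depends on the libraries, since 761 of 17844 genes had such a p with No316 and No368 summed, 763 of 17741 without No316, 784 of 17693 without No368 and 3085 of 17574 without No203. It was 1197 of 16839 with library size alone. The DESeq2 Wald test called 419 of 25317 genes, or 1.66%, none of them among the 9. It gave no p-value for Alas2, Hbb-bs and Hbb-bt and no adjusted p for Epb42 and Gata1, so these genes could not be called. The 25317 genes include such genes without an adjusted p. All 6 tested genes overlapped between genotypes, whereas 9.49% of the tested genes had every CD44-/- tumor above and 9.57% every CD44-/- tumor below the CD44+/+ tumors. The median log2 fold change of the 4 globin genes was -1.41, beside 0.11 over all genes tested, of which 9277 were positive and 7562 negative.

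**Figure D4:**
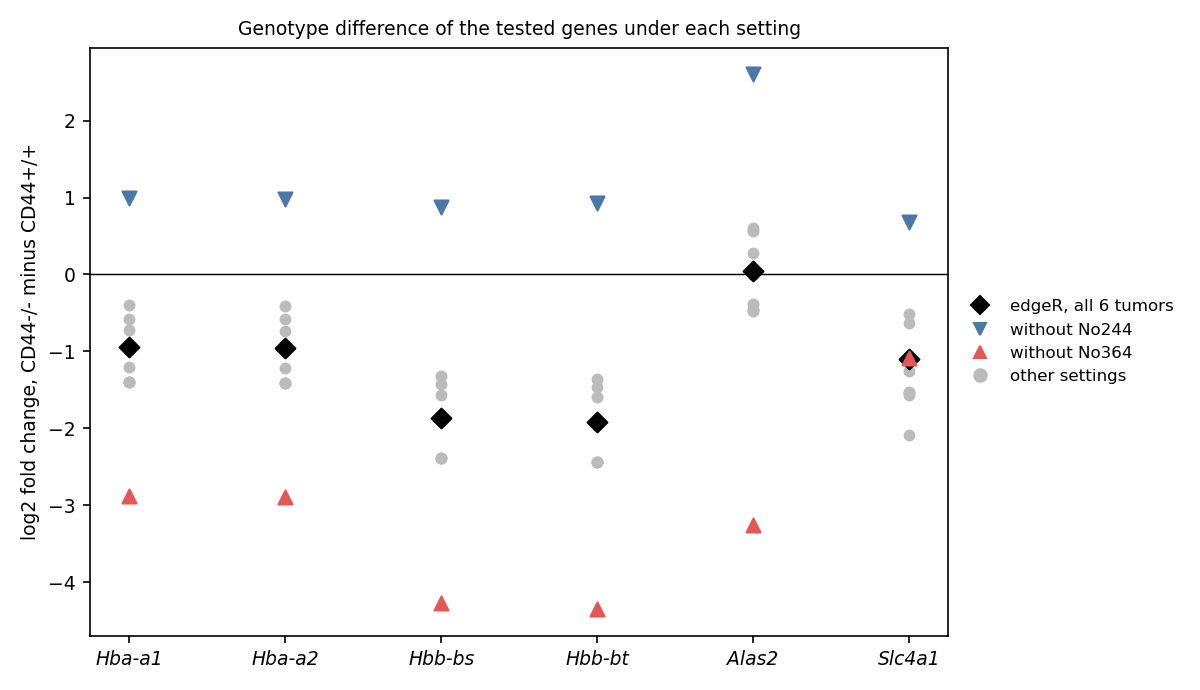
Log2 fold change (CD44-/- minus CD44+/+) of the 6 tested genes in edgeR with all 6 tumors (diamonds), without No244, without No364 and under the other settings (grey). Without No244 all 6 genes lie above 0, and without No364 all 6 lie below 0.

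Per kilobase of exon, so that genes can be compared, the mean level over the tumors, with No316 and No368 as 1 sample, was highest for Hbb-bs at 1217 CPM per kb, followed by Hba-a2 at 947, Hbb-bt at 915 and Hba-a1 at 797. Alas2 followed at 9.77, Slc4a1 at 0.272, Klf1 at 0.223, Gata1 at 0.0323 and Epb42 at 0.0232 CPM per kb. The order among the 4 globins was not the same in all tumors. In No244 Hbb-bs led with 4481 CPM per kb, and in No203 Hba-a2 led with 234. The steps from the globins to Alas2 and from Alas2 to the remaining genes were present in every tumor, whereas Slc4a1 and Klf1 changed places, with Klf1 the higher in No279 (0.129 against 0.00675) and in No364 (0.684 against 0.150).

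Of the other genes of heme synthesis, all 11 listed enzymes and carriers passed the filter, 9 had a positive and 2 a negative log2 fold change (median 0.62), and 0 were called. Their summed level was 335 to 405 CPM in CD44+/+ and 250.3 to 1278 CPM in CD44-/- tumors, and 9 of the 11 were highest in No364. Alas1 alone had log2 fold change 4.06 (SE 1.44, adjusted p = 0.452). Fech, the enzyme that inserts iron into the ring, had 0.38 (SE 0.56, adjusted p = 0.806), and Ppox, the last enzyme but one, -0.999 (SE 0.53, adjusted p = 0.506).

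Of the other red cell membrane and skeleton genes, 10 of 16 passed the filter, with 4 positive and 6 negative fold changes (median -0.35) and 0 called. Their sum was 273 to 309 CPM in CD44+/+ and 141 to 258 CPM in CD44-/- tumors, without overlap. Of all single genes tested, 9.57% also had every CD44-/- tumor below the CD44+/+ tumors. Aqp1 alone gave 232.8 of the 274.2 CPM of No316, and its own levels overlapped, at 107.4 CPM in No244 and 162.6 in No203. The most abundant, the water channel gene Aqp1 (log2 fold change -0.64, adjusted p = 0.708), the skeleton gene Epb41 (0.73, adjusted p = 0.734) and the actin cap gene Tmod1 (-0.80, adjusted p = 0.736), are also used outside red cells. Of the other erythroid transcription factors, 8 of 11 passed, with 2 positive and 6 negative (median -0.29) and 0 called, led by Ldb1 (-0.55, adjusted p = 0.549), Lmo2 (0.75, adjusted p = 0.677) and Cbfa2t3 (-2.10, adjusted p = 0.460). Their sum was 141 to 158 CPM in CD44+/+ and 83.0 to 126 CPM in CD44-/- tumors, again without overlap, and the sums were not tested. Ldb1 alone gave 82.3 of the 158.2 CPM of No316. Of the genes for erythropoietin response, iron uptake and late maturation, 11 of 14 passed, with 7 positive and 4 negative (median 0.48) and 0 called. The transferrin receptor gene Tfrc had 13664 counts in No203 and 1155 to 4744 in the others (log2 fold change 1.02, adjusted p = 0.700). Bnip3l, a gene for the removal of mitochondria, had 0.31 (adjusted p = 0.777), and Car2, a carbonic anhydrase gene, had 2.43 (adjusted p = 0.452).

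Genes with a use nearly restricted to the red cell line put No203 apart. Rhag, Rhd, Kel, Trim10, Trim58 and Hemgn were picked from the lists after their values were seen, and are given as a description. They had 85 counts in No203, 24 in No244 and 5 to 17 in each of the others, and 5 of the 6 were highest in No203 and 1 in No244. Per 1000 globin counts this was 7.02 in No203 (exact 95% Poisson interval 5.604 to 8.68) and 3.41 in No279, against 0.0760 to 0.845 in the other tumors. No203 thus had the most Slc4a1, Gata1 and red cell line RNA in proportion to Alas2, and No364 the least of Slc4a1.

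Genes that handle free hemoglobin and iron were tested as well. All 10 passed, with 9 positive and 1 negative (median 0.49) and 0 called, and their sum was 16275 CPM in No364 and 1899 to 2980 CPM in the others. Hp and Hpx, which encode the plasma binders of hemoglobin and heme made by the liver, had 103532 and 102463 counts in No364 and at most 717 and 441 elsewhere. Ftl1, a ferritin chain gene, had 0.57 (adjusted p = 0.757).

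Markers of other cells that use GATA1 or travel with red cells were set beside these values. Platelet and megakaryocyte markers (5 of 8 passed, 2 positive and 3 negative, median -0.08, 0 called) summed to 95.4 to 144 CPM in CD44+/+ and to 15.7 to 59.6 CPM in CD44-/- tumors, sums that did not overlap. Of all single genes tested, 9.57% also had every CD44-/- tumor below the CD44+/+ tumors. Gp1bb was the most abundant (log2 fold change -1.79, adjusted p = 0.483), with Pf4 (-1.94, adjusted p = 0.526) and Ppbp (2.27, adjusted p = 0.616). The sums rested largely on Gp1bb, which gave 139.7 of the 143.6 CPM of No244. In that tumor Pf4 was at its lowest, 0.672 CPM, and Ppbp had 0 counts. Mast cell markers (2 of 8 passed, 1 positive and 1 negative, median 0.56, 0 called) summed to 6.22 to 27.2 CPM in CD44+/+ and to 4.76 to 23.7 CPM in CD44-/- tumors. Kit gave 25.8 of the 27.2 CPM in No316. The markers did not go together, since Cpa3 had at most 3 counts in any tumor. Tpsb2 had 73 counts in No279 and 1 to 3 elsewhere, and Hdc had 301 in No279, 128 in No364 and 8 to 29 elsewhere. Eosinophil and basophil markers (1 of 5 passed, median -1.05, 0 called) summed to at most 1.34 CPM. Immature marrow neutrophil markers (6 of 10 passed, 3 positive and 3 negative, median 0.53, 0 called) summed to 26.3 CPM in No203, 23.6 in No364, 22.1 in No244, 13.5 in No279, 7.05 in No368 and 6.92 in No316, and 7 of the 10 were highest in No203. Elane, a defining gene of promyelocytes, had 16 counts in No203, 7 in No364, 5 in No244, 1 in No368 and 0 in No316 and No279. The most abundant members of the list peaked in other tumors. Mpo had 178 counts in No244 against 86 in No203, and Prtn3 had 303 in No364 against 27. Chil3 had 338 in No279 against 105 in No203. Mpo alone gave 15.0 of the 22.1 CPM of No244, and Prtn3 15.9 of the 23.6 CPM of No364. Mature blood neutrophil markers (6 of 6 passed, 5 positive and 1 negative, median 0.69, 0 called) summed to 111 CPM in No279, the tumor with the least globin RNA, and to 32.8 to 40.4 CPM in the others. B cell precursor markers (1 of 7 passed, median -0.92, 0 called) summed to 103 CPM in No244 and 13.6 to 50.5 CPM in the others, nearly all from Ebf1, which stromal cells also use, except in No364, where Dntt gave 12.5 of 16.2 CPM (239 counts, against at most 3 elsewhere). The part of these cells in the erythroid values was not tested.

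**Figure D5:**
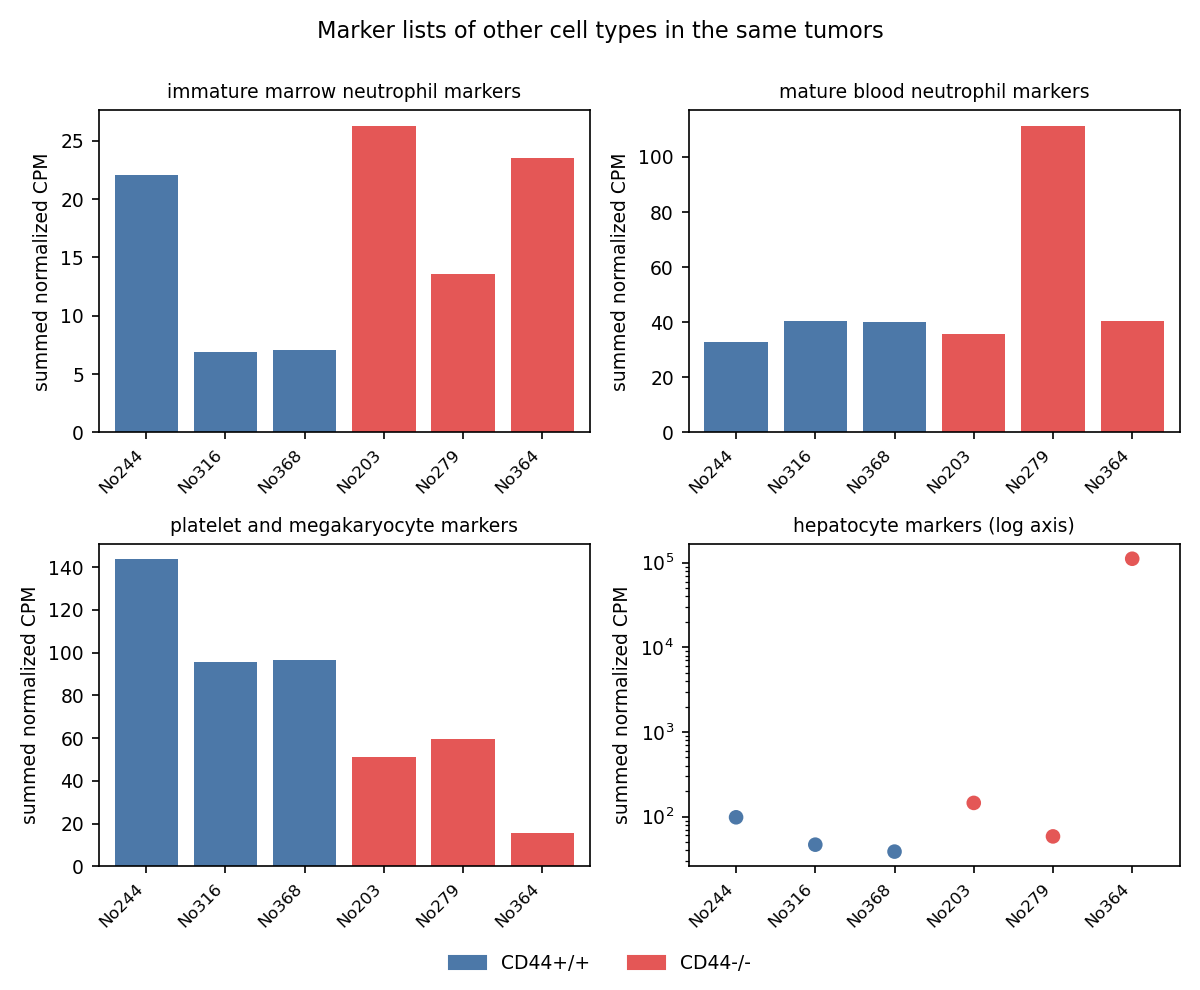
Summed normalized CPM of 4 marker lists in each tumor (bars in blue for CD44+/+ and red for CD44-/-, and points on a log axis for hepatocyte markers). Immature marrow neutrophil markers are highest in No203, mature neutrophil markers in No279, platelet and megakaryocyte markers in No244 and hepatocyte markers in No364. The platelet and megakaryocyte sum of No244 is nearly all Gp1bb.

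All 8 hepatocyte markers had positive log2 fold changes (median 9.52, 0 called, all 8 highest in No364), and of the 7 osteoblast and bone matrix markers 2 were positive and 5 negative (median -0.79, 0 called).

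Likeness was measured over the 6 tumors as the root mean square difference between centred log2 CPM profiles, with a median of 2.15 over 16833 genes for the profile of the summed globins. Hba-ps4, an alpha globin pseudogene, was the most like (0.27), and Lgals4 (0.45) was also near, with Col20a1, Snhg11, Cd59a, Igha, Sytl1, Gm4986 and A330023F24Rik following at 0.60 to 0.70. Alas2, at 0.64, would rank among these genes and Slc4a1, at 1.15, would not. The genes most like the mean profile of Klf1 and Gata1 were Anp32a (0.13), Ppa1 (0.14) and Gm14450 (0.15), followed by Spcs2, Prdx5, Zfp128, Trappc1, Nars2, Rassf3 and Impa1 at up to 0.19, beside a median of 1.05. With 1 to 23 counts behind it, that profile is flattened by the prior count of 2, and none of the named genes belongs to any list used here.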

How the data were processed

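Libraries of the TruSeq stranded mRNA kit were made from total RNA of osteosarcoma tissue and sequenced from 1 end for 51 cycles on 2 lanes, with no step to remove globin RNA named. The label on extraction speaks of cell lines. The authors deposited raw counts per Ensembl gene, without normalization. The submitters' processing notes name bcl2fastq 1.8.4, HISAT2 2.0.2 and featureCounts of Subread 2.0.0 on GRCm38, and settings for strand and multiple matches are not given in the sources used here. Symbols and coordinates came from GENCODE M21, another release than that used for counting (37607 of 39179 identifiers had a symbol), and Ahsp of the globin list was not matched.

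Counts were fitted with edgeR 4.0.16 in R 4.3.3 for genotype alone over the 6 libraries, with TMM scaling and the default filterByExpr filter. A gene was called where its quasi-likelihood p, adjusted by Benjamini-Hochberg over all tested genes, was under 0.05. Normalized CPM are counts scaled to the TMM-adjusted library size. Ratios and shares were compared by exact permutation tests, for which No316 and No368 entered as their mean. Whether the 3 mice of a genotype were litter mates is not given, and p-values measure the spread between these tumors only. Alternatives were DESeq2 1.42.0 (size factors and Wald test), limma-voom (limma 3.58.1), library size alone, no mitochondrial genes, other low-count filters (a total count over 1, or at least 10 counts in every tumor), the pair summed, and each tumor left out in turn.

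The 9 genes and all lists were chosen with earlier results of these data known. Named genes are the 9, from each list at most the 3 with the highest mean CPM, the 10 most like each profile and Cd44, and further genes were named after their values were seen (Sp7, Hpx, Apex2, Cpa3, Elane and the 6 red cell line genes). Some items that this rule names are not reported here.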

Additional observations from a re-analysis of the deposited data

How the results depend on the processing

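No erythroid gene was called under any of the alternatives. The number of genes called over the whole table stayed at 0 except in the DESeq2 Wald test, which called 419. That test gave no adjusted p for Alas2, Hbb-bs, Hbb-bt, Epb42 and Gata1. Leaving out a tumor moved the log2 fold changes most, and their lowest and highest values were -2.87 and 0.99 for Hba-a1, -2.90 and 0.98 for Hba-a2, -4.27 and 0.88 for Hbb-bs, -4.35 and 0.93 for Hbb-bt, -2.09 and 0.68 for Slc4a1 and -3.25 and 2.60 for Alas2. The first 5 genes changed sign without No244 alone. Alas2 also changed sign with No316 and No368 summed (-0.46), in limma-voom (-0.38) and without mitochondrial genes (-0.0040). With that pair summed, the log2 fold changes were -1.40 for Hba-a1, -1.41 for Hba-a2, -2.38 for Hbb-bs, -2.43 for Hbb-bt and -1.54 for Slc4a1. The difference in the share of Hbb-bt ranged from -0.53 to 0.63 percentage points when a tumor was left out, positive without No244 alone. The differences in globin share, in alpha to beta ratio and in factor, heme and membrane counts per globin count kept their direction under all alternatives run. Slc4a1 has no value with at least 10 counts in every tumor, since No279 had 1. Each genotype holds at most 3 tumors and the biological coefficient of variation was 0.708, which limits the size of the difference that can pass. No paired analysis was possible because the labels give the tumors no shared replicate numbers.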
